A study of Homo sapiens with 6 samples.

Results

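The transcriptome of control MDA-MB-231 cells was described from the 2 libraries titled shNC, out of 6 libraries in the series. MDA-MB-231 is a human breast cancer line of the triple-negative type. All 6 libraries came from this line, and the series held 2 libraries each of shNC, shHMGA2-1 and shHMGA2-2. The study describes the control cells as transfected with shNC. The shHMGA2-1 and shHMGA2-2 cells carried hairpins against HMGA2, an architectural chromatin protein. The library names of the control samples read WT where their titles read shNC. Whether they carried a control vector cannot be told from the labels or from the HMGA2 levels below. The methods describe limiting dilution and picking of single clones after lentiviral selection, and do not say whether the 2 shNC libraries came from separate cultures. The SD between them may thus be technical. Levels only are given below, and no group was compared with another. As a check of the labels, HMGA2 stood at 8.31 and 8.44 FPKM in the shNC libraries, at 3.32 and 3.83 FPKM in those of shHMGA2-1, and at 1.75 and 1.93 FPKM in those of shHMGA2-2. FPKM is the read count of a gene scaled to its exon length and to the total of the library.

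Triple-negative tumours lack the oestrogen receptor (ESR1), the progesterone receptor (PGR) and amplified ERBB2, the receptors on which endocrine and HER2-directed therapies act. Luminal cells of the breast are recognised by keratins 8 and 18 with the factors GATA3 and FOXA1, and basal cells by keratins 5 and 14 with TP63. Cells that have left the epithelial state lose E-cadherin (CDH1) and gain vimentin (VIM) and the repressors ZEB1 and SNAI2.

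The shNC libraries held 16975333 and 16980970 counts over 61806 genes. Of these genes, 25548 had a count in either library and 36258 had 0 counts in both. A mean of at least 1 FPKM, used here as the mark of an expressed gene, was reached by 11664 genes, at least 10 FPKM by 4324, at least 100 FPKM by 263 and at least 1000 FPKM by 19. Among the 19838 protein-coding genes, 10007 (50.4%) were expressed, the median was 1.06 FPKM, and 5126 (25.8%) had 0 counts in both libraries. Numbers of expressed or silent members of lists and classes below are to be set against these 50.4% and 25.8%. A count of 0 allows up to 3 counts, or 0.177 CPM (counts scaled to the library total only), and this limit covers counting error only. Of the 11008 protein-coding genes that share no exonic base with another gene, 32.4% had 0 counts in both libraries. The share was 13.9% of the 7697 with up to 50% of their bases shared, 27.0% of the 596 with over 50% and up to 90%, 41.5% of the 200 above that, and 69.2% of the 292 with all bases shared, so that it did not rise steadily with sharing. The part of shared exons in a count of 0 was not tested.

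Counts were spread over many genes. The 10 genes with most counts took 7.09% and 7.16% of the 2 libraries, the 100 with most counts 19.97% and 20.09%, and the 1000 with most counts 50.7% in each. It took 966 and 965 genes to reach 50% of the counts. With mitochondrial genes left out, 1132 and 1134 nuclear genes were needed.

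**Figure D1:**
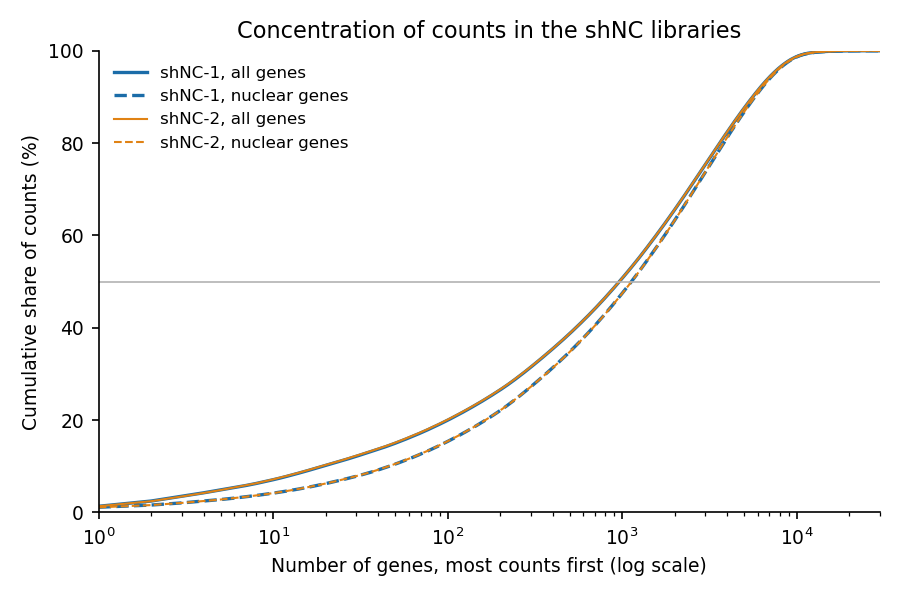
Cumulative share of counts (%) against the number of genes, ordered from most counts down on a log axis, for each shNC library, over all genes (solid) and nuclear genes (dashed). The curves of the 2 libraries lie on each other and cross 50% at 966 and 965 genes, or at 1132 and 1134 nuclear genes.

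The highest genes per length were those of the mitochondrial genome, which encodes subunits of the respiratory chain and its own ribosomal RNA. MT-CO1, a subunit of cytochrome c oxidase, led with 8661 and 8711 FPKM, followed by MT-CO3 with 8096 and 8076 FPKM and by MT-RNR2, the large ribosomal RNA, with 7281 and 6997 FPKM. MT-ATP6 (6390 ± 238 FPKM, SD, n = 2), MT-CO2 (5787 ± 183), MT-ND4 (5389 ± 138), MT-ND2 (5147 ± 318), MT-RNR1 (3961 ± 141) and MT-ND1 (3443 ± 211) came next. All 13 protein-coding genes of that genome were among the 25 highest. They took 5.24% and 5.34% of the counts, the 2 ribosomal RNAs 1.50% and 1.48%, and 22 transfer RNAs together 263 and 203 counts. Of the latter, MT-TP held 258 and 202.

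The highest nuclear gene was FTL, the light chain of ferritin, which stores iron, with 3187 and 3098 FPKM. TMSB10 followed with 1734 and 1701 FPKM. It belongs, with TMSB4X (753 and 692 FPKM), to the thymosins, which bind monomeric actin. EEF1A1, the factor that brings aminoacyl-tRNA to the ribosome, reached 1045 and 1021 FPKM, ACTB 1002 and 1033 FPKM, and GAPDH 920 and 901 FPKM. The cytosolic chaperones HSP90AA1 (862 ± 9.96 FPKM) and HSP90AB1 (807 ± 4.4) and the actin ACTG1 (625 ± 3.7) completed the nuclear protein-coding genes among the 25 highest. These 9 genes, the mitochondrial ones and 1 pseudogene made up the 25. MTATP6P1, a nuclear pseudogene of MT-ATP6 on chromosome 1, was that pseudogene, with 712 and 737 FPKM. Reads of such near-identical copies can be assigned to either, so that its level is uncertain.

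By counts, without regard to length, the order differed: 18 of the 25 highest genes by FPKM were among the 25 with most counts. The 10 with most counts were MT-CO1, MT-RNR2, EEF1A1 (178472 and 174483 counts), MT-ND4, MT-CO3, MT-ND2, ACTB, HSP90AA1, MT-ATP6 and MT-CO2. EEF1A1 was number 3 by counts and number 18 by FPKM, where it followed mitochondrial genes, FTL and TMSB10. Its exonic size, the union of all its exons, was 10063 bases. With the median length of its coding transcripts, 3447 bases, it was number 2 among nuclear coding genes, where FPKM placed it as number 3.

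HMGA1, the paralogue of the knocked-down gene, was the 14th highest nuclear coding gene, with 514 and 536 FPKM. HMGA2 itself ranked 4962nd of all genes.

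Protein-coding genes as a whole took 96.7% and 96.8% of the counts. By class, the mitochondrial genome took 6.74% and 6.82% of the counts and ribosomal protein genes 3.46% and 3.33%. Of 87 ribosomal protein genes, 85 were expressed and 1 had 0 counts in both libraries. RPS2 (558 ± 2.1 FPKM), RPL41 (475 ± 9.1), RPL7A (416 ± 6.0), RPL8 (385 ± 7.1) and RPLP0 (336 ± 3.7) were the highest. Translation factors (70 genes, 62 expressed) took 2.54% and 2.53% of the counts, led by EEF1A1, the elongation factor EEF2 (345 ± 9.0 FPKM) and the initiation factors EIF4G2 (185 ± 3.2), EIF4A2 (161 ± 0.13) and EIF5A (160 ± 2.7). The class of translation factors was drawn by the start of the gene symbol (EEF or EIF), so that it may hold other genes too. Heat shock and J proteins (77 genes, 55 expressed), also drawn by symbol and perhaps with other genes, took 1.86% and 1.87%. Beside the HSP90 genes, HSPA8 (609 ± 20.1 FPKM), DNAJA1 (209 ± 4.8) and the mitochondrial chaperonin HSPD1 (145 ± 1.7) were its highest members.

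Of the remaining protein classes, several were carried by few members. Among 19 S100 genes, which code for small calcium-binding proteins, 8 were expressed, with S100A6 (350 ± 20.3 FPKM), S100A11 (276 ± 5.4) and S100A10 (257 ± 0.84) far above S100A16 (59.7 ± 0.085) and S100A13 (8.60 ± 0.69). Among 12 annexins, calcium-dependent membrane-binding proteins, 9 were expressed, led by ANXA1 (161 ± 0.23 FPKM), ANXA5 (154 ± 0.50), ANXA2 (103 ± 1.2), ANXA6 (49.7 ± 0.26) and ANXA7 (49.5 ± 1.1). Metallothioneins, which bind zinc and copper, were expressed from 3 of 11 genes. MT2A stood at 198 and 205 FPKM, MT1E at 42.3 and 43.2, MT1X at 5.73 and 7.74, and the other 8 had 0 counts in both libraries.

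Of 55 keratin genes, 7 were expressed and 40 had 0 counts in both libraries. They were KRT18, KRT7, KRT10, KRT80, KRT8, KRT81 and KRT19, and together with the other 48 they took 0.0401% and 0.0404% of the counts. Of 16 other intermediate filament genes, 6 were expressed. VIM led with 418 and 432 FPKM, followed by the lamins LMNB2 (97.5 ± 0.050), LMNB1 (56.8 ± 2.6) and LMNA (50.9 ± 0.31), and by BFSP1 (2.49 ± 0.35). Collagens were low for their number: 11 of 44 genes were expressed, and the highest were COL12A1 (14.3 ± 0.35 FPKM), COL13A1 (12.99 ± 0.62), COL8A1 (10.1 ± 0.29), COL4A2 (8.66 ± 0.064) and COL18A1 (7.03 ± 0.099). Of 26 integrin genes 11 were expressed, and ITGB1, the partner of many alpha subunits, was the highest at 256 and 256 FPKM and 12th of all genes by counts.

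Histone genes took 0.214% and 0.212% of the counts, and 16 of 88 were expressed. High members were H2AZ1 (200 ± 10.6 FPKM), H2AX (88.0 ± 1.2), H3-3B (78.0 ± 0.071) and H2BC12 (56.4 ± 0.18). Most histone genes of the S phase clusters make messages without a poly(A) tail, and these libraries were made from captured mRNA. What this removed was not tested.

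Long non-coding genes took 1.006% and 0.991% of the counts, and 671 of 14745 were expressed. NORAD (73.0 ± 1.7 FPKM), a transcript without a named symbol on chromosome 13 (ENSG00000275216, 43.1 ± 4.3), SNHG1 (42.8 ± 1.00), FGD5-AS1 (36.5 ± 1.1) and SNHG3 (32.5 ± 0.79) were the highest. NEAT1, the scaffold of paraspeckles, had 10102 and 9668 counts, the most of those named here. Pseudogenes took 0.630% and 0.618%, and their highest members, such as MTATP6P1 and EEF1A1P5 (223 and 221 FPKM), resembled highly expressed parents.

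Of the hormone and HER receptors, 2 of 9 (22.2%, against 50.4% of all protein-coding genes) were expressed, EGFR and ERBB2. EGFR (chr7:55019017-55211628) had 33.3 and 33.6 FPKM, from 9019 and 9103 counts. ERBB2 (chr17:39687914-39730426) had 6.43 and 6.70 FPKM, and stood 5795th of all genes. The prolactin receptor PRLR lay just under the mark, at 0.99 and 0.94 FPKM.

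The steroid receptors of breast tissue, ERBB3 and ERBB4 were all under 1 FPKM. ESR1 (chr6:151656691-152129619) had 12 and 7 counts and PGR (chr11:101029624-101129813) 2 and 1. ESR2 had 39 and 34 counts (0.18 ± 0.014 FPKM), ERBB3 44 and 34, and ERBB4 1 and 0. In both libraries the counts of PGR and ERBB4 were at or under the limit that a count of 0 allows. Those of ESR1, ESR2 and ERBB3 were above it. In bulk RNA, a few cells with the message and a low level in every cell cannot be told apart.

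Luminal genes were expressed in part: 10 of 25 (40%, against 50.4% of all protein-coding genes), with a median of 0.23 FPKM. The simple-epithelial keratins KRT18 (34.8 and 37.4 FPKM), KRT7 (24.3 and 24.5) and KRT8 (11.4 and 10.7) were present, as were XBP1 (23.8 ± 0.88 FPKM), a factor of the secretory pathway, the zinc transporter SLC39A6 (22.5 ± 0.66) and MLPH (6.15 ± 0.25), an adaptor of organelle transport. The lineage factors were low. FOXA1 had 110 and 94 counts (1.36 ± 0.16 FPKM) and GATA3 58 and 41 (0.86 ± 0.21 FPKM). TFF1 and TFF3, secreted products of oestrogen-responsive cells, ELF5, TBX3, SCGB2A2 and AGR3 had 0 counts in both libraries, and SPDEF, PIP and RERG at most 3.

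Basal and myoepithelial genes were expressed from 9 of 27 genes (33.3%, against 50.4% of all protein-coding genes), with a median of 0.05 FPKM. The integrin ITGA6 (38.6 and 40.5 FPKM) and the laminin chain LAMB3 (29.3 and 30.6) were far above the factor FOXC1 (6.89 and 7.41), LAMA3 (3.65 ± 0.28) and the oxytocin receptor OXTR (2.66 ± 0.23). The basal keratins KRT5, KRT6A, KRT6B, KRT14 and KRT16 had 0 counts in both libraries, as had EN1, MME, VGLL1 and ACTG2. KRT17 had 0 and 3 counts, KIT 0 and 1, SOX10 2 and 2, CNN1 0 and 1 and MIA 2 and 0. TP63 had 8 and 11 counts (0.075 ± 0.021 FPKM).

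Of 31 epithelial genes, 9 (29%, against 50.4% of all protein-coding genes) were expressed and 12 had at most 3 counts in each library. AP1M2, a clathrin adaptor subunit of polarised cells, had 38.1 and 34.7 FPKM and the desmosomal cadherin DSG2 18.9 and 19.5. EPCAM (3.31 ± 0.33 FPKM), CLDN4 (3.04 ± 0.028) and PKP3 (1.97 ± 0.28) were lower. CDH1 (chr16:68737292-68835537) had 0 counts in both libraries, which at its exonic size allows up to 0.0291 FPKM. CDH3, RAB25, CRB3, PKP1, PRSS8, SPINT1 and OVOL1 were at 0 as well, and the splicing and transcription factors of the epithelial state ESRP1, GRHL2, GRHL3 and OVOL2 had at most 3 counts in either library.

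Mesenchymal genes were expressed from 19 of 30 members (63.3%, against 50.4% of all protein-coding genes). Their median was 3.93 FPKM against 1.06 FPKM over all protein-coding genes. Together they took 0.904% ± 0.012 of the counts, and the epithelial list 0.0384% ± 0.0006. Much of the mesenchymal share came from VIM (2201 CPM), MSN (1493 CPM) and AXL (1173 CPM). Both lists were chosen with earlier results of these data known, so that the 2 shares describe these members and test nothing. VIM (chr10:17228241-17237593) stood at 425 ± 9.7 FPKM. The caveolar proteins CAVIN1 (254 and 246 FPKM) and CAV1 (158 and 155), the kinase AXL (225 and 232) and the membrane linker moesin MSN (129 and 133) all exceeded 100 FPKM in both libraries.

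The repressors of the epithelial programme were unequal in level. ZEB1 had 35.0 and 34.6 FPKM, SNAI2 1.96 and 2.01, ZEB2 1.10 and 1.02, and SNAI1 0 and 4 counts, while TWIST1 and TWIST2 had 0 counts in both libraries. N-cadherin CDH2, the cadherin that commonly replaces CDH1, had 8 and 4 counts, and CDH11 had 0. SPARC had 6 and 5 counts, COL3A1 4 and 0, PRRX1 1 and 1 and THY1 1 and 0. The 2 libraries thus held VIM and ZEB1 without appreciable CDH1, CDH2 or TWIST1 counts.

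Of the genes of stem and progenitor cells, 7 of 14 (50%) were expressed, near the 50.4% of all protein-coding genes. CD44, a hyaluronan receptor, had 64.9 and 66.0 FPKM and CD24 1.73 in each library, and ITGA6 (39.6 ± 1.3 FPKM), MYC (26.7 ± 1.3), BMI1 (24.3 ± 0.83), KLF4 (16.7 ± 0.55) and PROCR (15.3 ± 0.078) were the other high members. ALDH1A1, PROM1 and NANOG had 0 counts in both libraries, SOX2 3 and 1 and LGR5 1 and 1.

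Receptor tyrosine kinases bind growth factors and signal to the RAS and PI3K pathways. Of 58 genes, 18 (31%) were expressed, with a median of 0.09 FPKM, and 13 had 0 counts in both libraries. Over all protein-coding genes, 50.4% were expressed and 25.8% had 0 counts. AXL, a receptor of GAS6, was the highest at 228 ± 5.0 FPKM, the 76th of all genes. EPHA2, a receptor of ephrins, followed with 74.5 and 74.4 FPKM, then MET, the receptor of hepatocyte growth factor, with 32.9 and 34.7, EGFR with 33.3 and 33.6, MERTK with 12.2 and 12.4, and RYK with 7.40 and 6.75. MET and EGFR did not differ in order beyond their spread. Between RYK and EPHB2, 6 receptors (RYK, IGF1R, EPHB4, ERBB2, FGFR1 and EPHB2) lay within 5.68 to 7.08 FPKM. PDGFRA, RET, FGFR2, FLT3, TEK, ROS1, ROR2 and the neurotrophin receptor NTRK3 had 0 counts in both libraries.

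Nuclear receptors are transcription factors that bind steroids, retinoids, lipids or no known ligand. Of 48 genes, 22 (45.8%, near the 50.4% of all protein-coding genes) were expressed, with a median of 0.70 FPKM. The orphan receptor NR2F2 had 45.4 and 45.5 FPKM, the clock repressor NR1D2 26.6 and 26.1, and the glucocorticoid receptor NR3C1 18.2 and 16.7. PPARD (13.1 ± 0.26 FPKM), NR2F6 (12.95 ± 0.52) and ESRRA (10.8 ± 0.16) followed. The oestrogen receptors and PGR were under 1 FPKM, and HNF4A, NR1I2, NR1H4, NR5A1, RXRG, NR2E1, ESRRB and NR0B1 had 0 counts in both libraries.

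Of 1379 genes annotated by GO with sequence-specific transcription factor activity, 631 (45.8%) were expressed and 363 had 0 counts in both libraries. These shares lay near those of all protein-coding genes, with 50.4% expressed and 25.8% at 0 counts. The AP-1 subunit FOSL1 was the highest, at 172 and 187 FPKM, followed by HIF1A, the oxygen-regulated subunit, at 155 and 158 FPKM. HNRNPA2B1 (101.2 ± 0.47 FPKM) and PCBP1 (87.0 ± 4.0), both better known as RNA-binding proteins, carried the GO term too. ATF4 (80.6 ± 0.67 FPKM), a factor of the integrated stress response, TFDP1 (73.8 ± 2.0), the partner of E2F, the ETS factors ETS1 (59.8 ± 0.35) and ELK3 (56.6 ± 0.11), the AP-1 subunit JUN (55.5 ± 0.96) and KLF6 (48.5 ± 2.2) made up the rest of the 10 highest.

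Genes of invasion and secretion were expressed from 20 of 32 members (62.5%, against 50.4% of all protein-coding genes). The matricellular proteins CCN1 (343 and 346 FPKM) and CCN2 (258 and 257) led, and other high members were the inhibitor TIMP2 (70.9 and 71.7), the membrane-bound metalloproteinase MMP14 (49.98 and 48.4) and the urokinase PLAU (28.5 and 33.7). TIMP3, CCL2, MMP2 and MMP13 had 0 counts in both libraries, MMP9 had 1 and 0, INHBA 1 and 2 and CCL5 2 and 1.

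A list of 21 genes was put together around the subject of the study. It holds HMGA2, KAT6A, metalloproteinases and other genes that the study mentions by gene or protein name. HMGA1 and single tubulin genes, which the study does not name, were added. Of the 21 genes, 18 were expressed. MMP1 had 155 and 165 counts (3.44 ± 0.16 FPKM). The acetyltransferase KAT6A stood at 4.25 and 4.22 FPKM, TRIM24 at 4.22 and 4.55, and HMGA2 at 8.38 ± 0.092 FPKM. GAPDH, TUBB (550 ± 2.9 FPKM), HMGA1, TUBA1B (207 ± 1.0), TUBA1C (129 ± 1.7) and the proliferation antigen MKI67 (76.3 ± 1.8) were the highest members of the list, and FOXL2 had 0 counts. At this depth, MMP2 and MMP9 messages were thus not detectable above the limit of 3 counts. By other measures, RT-qPCR, western blot and gelatin zymography, the study reported both as lowered in triple-negative cells after HMGA2 knockdown.

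All 20 proliferation genes were expressed, at 11.3 to 150.1 FPKM. The highest were TOP2A (150 ± 0.73 FPKM), PCNA (128 ± 1.1), CCNB1 (118 ± 0.32), the helicase subunit MCM3 (91.9 ± 0.54), MKI67 and the kinase AURKA (66.5 ± 1.2). Of 21 glycolytic genes and transporters, 20 were expressed, with GAPDH, ENO1 (345 ± 6.9 FPKM), LDHA (297 ± 4.4), PKM (204 ± 4.3), PGAM1 (200 ± 1.6) and TPI1 (164 ± 2.8) on top. The lactate carrier SLC16A3 had 23.2 and 22.4 FPKM and SLC16A1 0.09 and 0.14. Cytoskeletal genes were expressed from 31 of 33 members and took 2.97% ± 0.025 of the counts. Beside the thymosins and actins, they were led by the actin-binding PFN1 (610 ± 0.71 FPKM) and TUBB.

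Genes commonly used as references spanned a wide range. All 16 were expressed, among them SDHA (6.28 ± 0.16 FPKM), GUSB (12.5 ± 0.12) and TBP (13.4 ± 0.58) at the low end and RPL13A (336 ± 1.8), RPLP0, TUBB, GAPDH and ACTB (1017 ± 21.8) at the high end. YWHAZ stood at 233 ± 2.5 FPKM.

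Of 25 targets of antibodies and drugs, 18 (72%, against 50.4% of all protein-coding genes) were expressed. TUBB, the target of taxanes, tissue factor F3 (164 and 166 FPKM), TOP2A, AURKA and TYMS (62.8 ± 1.4) were the highest. The checkpoint ligand CD274 had 5.53 ± 0.092 FPKM. NECTIN4, VTCN1 and LRRC15 had 0 counts in both libraries, and the drug efflux pump ABCB1 0 and 3.

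Of 32 tumour suppressors and oncogenes, 27 (84.4%, against 50.4% of all protein-coding genes) were expressed, with a median of 8.44 FPKM. CCND1, which drives the G1 kinases, was the highest at 193 and 191 FPKM, followed by NRAS (69.7 and 69.9), CDK4 (38.9 and 38.3), MYC (25.7 and 27.6), HRAS (27.1 and 25.6) and KEAP1 (24.0 ± 0.48). MDA-MB-231 is known to carry mutant BRAF and NF2. Their messages were present, at 1.62 ± 0.057 and 1.50 ± 0.14 FPKM. Only RNA levels were measured, and alleles were not examined. RB1 had 21.7 and 22.9 FPKM.

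The members at 0 counts in both libraries were CDKN2A, CDKN2B and MTAP, which lie side by side on chromosome 9. CDKN2A and CDKN2B code for inhibitors of CDK4 and CDK6, and MTAP for an enzyme of methionine salvage that most tissues express. Loss of this locus from the MDA-MB-231 genome is known. At its exonic size, 0 counts allow CDKN2A up to 0.0455 FPKM and MTAP up to 0.0122 FPKM in a library. Of their exonic bases, 7.88% in CDKN2A, 0 in CDKN2B and 9.58% in MTAP also belonged to other genes in the annotation, so that most of their length belonged to no other gene.

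Around these genes, 25 protein-coding genes in a row had 0 counts in both libraries, from HACD4 to IZUMO3 (chr9:20999509-24545946, 3.55 Mb). The row held the type I interferon genes IFNB1, IFNW1, IFNE, IFNA1, IFNA2, IFNA4, IFNA5, IFNA6, IFNA7, IFNA8, IFNA10, IFNA13, IFNA14, IFNA16, IFNA17 and IFNA21. It also held KLHL9, an adaptor of ubiquitin ligases, MTAP, a readthrough gene (ENSG00000264545) whose exons are all shared with others, CDKN2A, CDKN2B, DMRTA1 and the neuronal RNA-binding gene ELAVL2. On the near side, FOCAD (chr9:20658309-20995955), the neighbour of HACD4, had 78 and 78 counts and MLLT3 422 and 468. Further out, RPS6 had 11486 and 11275 counts, HAUS6 2303 and 2270, PLIN2 1439 and 1457, RRAGA 922 and 972, DENND4C 782 and 740, ACER2 39 and 36, SAXO1 14 and 10, and SLC24A2 0 and 0. On the far side, TUSC1 was the first gene with a count.

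Within 3 Mb of CDKN2A, 93 of 109 genes of any kind and 26 of 35 protein-coding genes had 0 counts in both libraries. A processed pseudogene inside the row, CLIC4P1, had 19 and 26 counts. Interferon genes, ELAVL2 and IZUMO3 are commonly silent in unstimulated or non-neuronal cells, so that 0 counts of those members cannot be told apart from loss of the genes. RNA counts alone do not separate a deleted gene from a silent one.

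**Figure D2:**
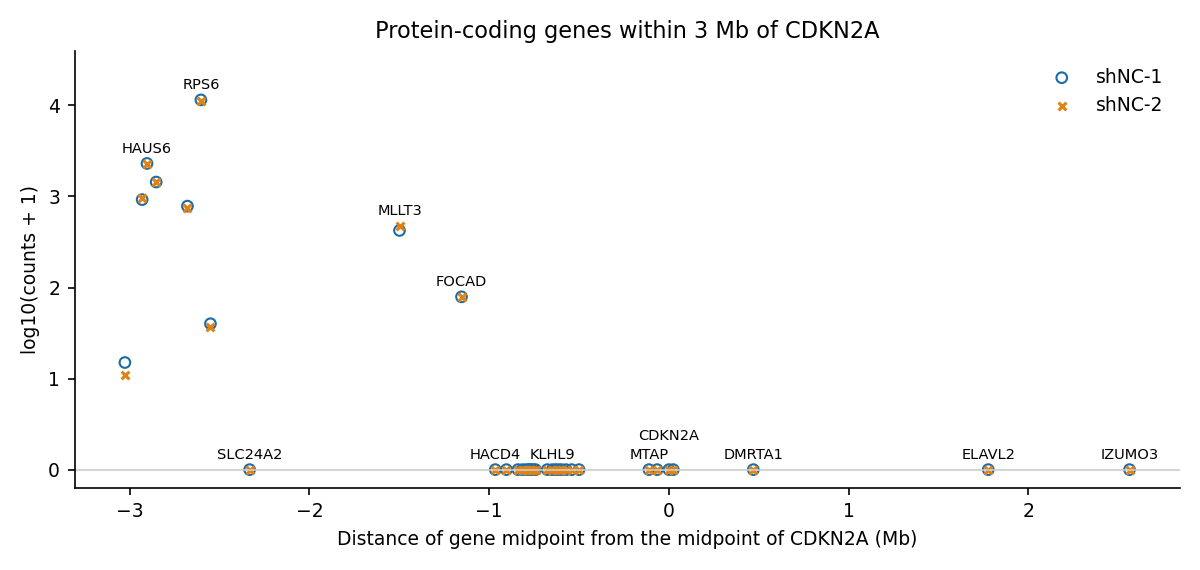
log10(counts + 1) in each shNC library for the 35 protein-coding genes within 3 Mb of CDKN2A, by the distance of their midpoints from that of CDKN2A (Mb). The 25 genes from HACD4 to IZUMO3 lie at 0 in both libraries, next to FOCAD with 78 counts in each and MLLT3 with 422 and 468.

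Such rows occurred elsewhere. On the autosomes and chromosome X, 48 rows of 10 or more protein-coding genes at 0 counts held 858 genes, and the row on chromosome 9 was the ninth longest by genes. The longest, of 66 genes on chromosome 11, held 57 olfactory receptors. The following ones held olfactory receptors on chromosome 1 (43 genes), defensins on chromosome 8 (41), genes of the cornified envelope on chromosome 1 (36), keratin-associated proteins on chromosome 21 (35) and PRAMEF genes on chromosome 1 (32). The type II keratins from KRT83 to KRT78 formed a row of 21 genes on chromosome 12, between KRT81 with 217 and 232 counts and KRT8 with 1327 and 1247.

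Families common in such rows were mostly at 0 counts, against 25.8% of all protein-coding genes. Genes with close copies or shared exons may have lost reads in counting, so that 0 counts there need not mean silence. This was not tested. Of 388 olfactory receptor genes, 368 had 0 counts in both libraries and 0 were expressed. Of 94 keratin-associated protein genes 87 had 0 counts, of 45 defensins 43, of 16 kallikreins 14 and of 15 alpha protocadherins 14. The 16 kallikreins include KLKB1 on chromosome 4 (12 and 7 counts), which lies outside the KLK cluster on chromosome 19. Of 27 bitter and sweet taste receptor genes, 14 had 0 counts, and the highest, TAS2R20, had 36 and 37.

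Markers of other cell types were checked over whole lists. Of 20 leukocyte genes, 0 were expressed, 15 had at most 3 counts in each library, and their FPKM summed to 0.87 and 1.21. PTPRC, the pan-leukocyte antigen CD45, had 2 and 1 counts, and CD3D, CD3E, CD4, MS4A1 and LYZ had 0. Of 12 endothelial genes, 2 were expressed, ESAM and ROBO4, and the sum was 64.7 and 67.3 FPKM. Of the other 10, the receptor KDR had 58 and 57 counts (0.54 ± 0.007 FPKM), PECAM1 14 and 11, TIE1 3 and 18, CLDN5 5 and 1, CDH5 0 and 4 and VWF 0 and 1, while TEK, ERG, EMCN and PLVAP had 0 in both libraries. Hepatocyte genes summed to 0.44 and 0.42 FPKM with 0 of 8 expressed.

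Of the other lists, 1 of 8 muscle genes (MYH3, 1.28 ± 0.16 FPKM), 1 of 8 melanocyte genes (MITF, 4.47 ± 0.035), 2 of 8 adipocyte genes (PPARG, 2.36 ± 0.028, and LIPE, 1.35 ± 0.099) and 1 of 12 neuronal genes (ENO2, 20.1 ± 0.007) were expressed. MYOD1, MYOG, TYR, ADIPOQ, LEP, INSM1 and NCAM1 had 0 counts in both libraries. Cancer-testis antigens, normally restricted to the germ line, were expressed from 2 of 26 genes found in the table. CT83 had 121 and 69 counts (13.8 and 7.86 FPKM) and XAGE1A 14 and 18 counts. The remaining members were at 0 in both libraries except TEX14 (16 and 24 counts), including PRAME and the MAGEA genes.

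Promoters of high and silent genes differed in base composition over many genes, as given further below. The sequences printed here are examples and do not show this difference by themselves. A CpG dinucleotide is a C followed by a G. Promoters rich in it often belong to widely used genes, and those poor in it to genes of particular tissues. The sequences run from 250 bases before to 50 bases after the start of the gene in RefSeq (GRCh38.p14), 5′ to 3′ on the strand of the gene, with every CpG in capitals. They show a high gene with many CpGs (TMSB10, chr2:84905406-84905705, plus strand), a high gene with few (ANKRD1, chr10:90921038-90921337, minus strand), a gene of the silent row on chromosome 9 (MTAP, chr9:21802386-21802685, plus strand) and a silent basal keratin (KRT5, chr12:52520345-52520644, minus strand).
TMSB10: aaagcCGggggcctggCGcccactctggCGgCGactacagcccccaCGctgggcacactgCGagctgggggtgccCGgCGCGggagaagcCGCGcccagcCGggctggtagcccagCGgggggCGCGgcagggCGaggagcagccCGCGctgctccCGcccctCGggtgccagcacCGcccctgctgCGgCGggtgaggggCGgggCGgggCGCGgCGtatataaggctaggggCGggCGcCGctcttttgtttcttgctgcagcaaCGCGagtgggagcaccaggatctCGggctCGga
ANKRD1: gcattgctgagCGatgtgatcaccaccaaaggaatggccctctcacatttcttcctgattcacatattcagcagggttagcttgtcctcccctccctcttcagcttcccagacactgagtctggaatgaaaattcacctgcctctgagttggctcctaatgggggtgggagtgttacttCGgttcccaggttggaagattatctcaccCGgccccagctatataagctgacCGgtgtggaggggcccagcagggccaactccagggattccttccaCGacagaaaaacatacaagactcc
MTAP: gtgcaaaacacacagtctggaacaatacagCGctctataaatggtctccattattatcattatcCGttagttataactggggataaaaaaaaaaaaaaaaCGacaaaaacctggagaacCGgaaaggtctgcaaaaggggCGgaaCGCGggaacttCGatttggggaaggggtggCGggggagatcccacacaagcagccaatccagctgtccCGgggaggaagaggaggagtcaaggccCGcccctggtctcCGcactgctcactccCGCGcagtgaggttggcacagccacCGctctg
KRT5: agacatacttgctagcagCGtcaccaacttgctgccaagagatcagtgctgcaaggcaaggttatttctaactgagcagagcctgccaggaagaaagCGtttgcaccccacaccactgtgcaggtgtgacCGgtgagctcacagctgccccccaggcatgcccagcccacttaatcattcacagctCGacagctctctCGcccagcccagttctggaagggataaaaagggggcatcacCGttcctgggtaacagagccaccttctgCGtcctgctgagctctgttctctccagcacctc

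TMSB10, at 1718 FPKM, held 35 CpGs and 75.3% G and C. ANKRD1, which codes for a cardiac and injury-related ankyrin protein and stood at 351 FPKM, held 5 CpGs and 52.7%. MTAP, at 0 counts, held 15 CpGs and 53.0%, and KRT5, also at 0 counts, 7 CpGs and 56.3%. TMSB10 and ANKRD1 each held the letters TATAA from 30 bases before the start, where a TATA box usually lies. MTAP and KRT5 held them on neither strand between 50 and 11 bases before the start.

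Over the 11221 protein-coding genes with a single start in that table, the median number of CpGs rose with the level. It was 5 in the 2915 genes at 0 counts, 12 in those with counts but under 0.1 FPKM, 22 from 0.1 to 1 FPKM, 27 from 1 to 10 FPKM, and 28 both from 10 to 100 FPKM and in the 136 genes of at least 100 FPKM. Promoters with 20 or more CpGs made up 21.4% of the genes at 0 counts and 78.7% of those of at least 100 FPKM. MTAP thus lay nearer the upper quartile (17) than the median of the genes at 0 counts. The letters TATAA, searched on both strands between 50 and 11 bases before the start, were found in 7.96% of all these promoters. The share was 17.2% at 0 counts, 2.27% from 1 to 10 FPKM, 3.43% from 10 to 100 FPKM and 23.5% at 100 FPKM or more, so that it was highest in the 2 outer classes. A match of letters is a description and not a binding site, and genes are not independent replicates.

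The 2 libraries differed by somewhat more than counting error. Over 16453 genes with at least 10 counts in sum, chi-square per degree of freedom was 2.03, where counting error alone gives about 1. It was 1.69 in the 4279 genes with a mean of 10 to 100 counts, 1.79 in the 6283 genes of 100 to 1000, 2.31 in the next 3863 and 15.5 in the 174 genes with most counts. The median absolute log2 ratio fell over these classes, from 0.32 over 0.092 and 0.042 to 0.027. Of 12626 genes with at least 50 counts in sum, 48 (0.38%) differed by 2-fold or more. The 10 with the largest differences were RNVU1-24 (17 and 49 counts), GOLGA2P7 (19 and 53), ENSG00000273284 (45 and 17), OMG (37 and 14), ENSG00000272667 (18 and 46), TMEM53 (53 and 21), PINLYP (25 and 63), ENSG00000258559 (16 and 39), SAPCD1 (48 and 20) and H2BC11 (16 and 38). All had fewer than 100 counts in sum.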

How the data were processed

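RNA of 6 MDA-MB-231 libraries was sequenced after mRNA capture, and the 2 titled shNC were used here. The authors deposited 1 table with a raw count, not normalized, and an FPKM value for each gene and library. The submitters' processing notes name HISAT2 2.2.1, HTSeq 0.6.1 and the build GRCh38.p13. The counting mode and strand setting are not given in the sources used here, so that genes with shared exons or close copies may have lost or exchanged reads. FPKM was recomputed from counts, exonic size and library total for 100% of values within rounding. Exonic size is the union of all exons, so that genes with long rare isoforms read low per length. Of 61806 genes, 58254 were found in GENCODE 29, which gave gene types and the exonic bases shared between genes. Bases shared with the 3552 genes not found there were not counted as shared.

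Depth was 16975333 and 16980970 counts. Values are means ± SD (n = 2), and no test between groups was run. A gene was taken as expressed at a mean of 1 FPKM, and a count of 0 was taken to allow 3. Tables were made with pandas 2.3.3. Scaling factors of edgeR 4.0.16 and DESeq2 1.42.0 served as alternatives, beside TPM and CPM cuts, other FPKM cuts, another gene length and each library alone. The chi-square calculation was tested on simulated counts.

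Members and lists were chosen with earlier results of these data known. Named were the 25 highest genes by FPKM and 10 by counts, up to 6 of each list and its defining members at 3 counts or fewer, all protein-coding genes within 3 Mb of CDKN2A, the 5 highest of each class, 10 transcription factors and the 10 genes that differed most between the libraries. Genes outside these rules (NEAT1, KRT81, CD24, CD274, SLC16A1, SLC16A3, ANKRD1, RB1, TP63, reference genes and others named with a family or row) were named after their values were seen. Of 545 list entries, 1 (BAGE) was not matched. Classes of proteins were drawn by patterns of gene symbols, which can take in genes of other function. Some members of the lists and classes are counted in them but not reported here. Promoter sequences are those of RefSeq (GRCh38.p14).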

Additional observations from a re-analysis of the deposited data

How the results depend on the processing

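The scale set how large a class appeared. As a share of summed FPKM in place of counts, mitochondrial genes took 25.08% in place of 6.78%, ribosomal proteins 4.448% in place of 3.392%, protein-coding genes 91% in place of 96.75%, and the 100 highest genes 37.86% in place of 20.03%. With mitochondrial genes left out, the 100 highest took 15.39%, protein-coding genes 98.11% and ribosomal proteins 3.639%. Among nuclear protein-coding genes alone, 9 of the 25 highest were shared with the order over all genes, since the mitochondrial ones and the pseudogene were left out. With 1 library at a time, these shares ranged from 6.74% to 6.82%, 3.327% to 3.457%, 96.72% to 96.77% and 19.97% to 20.09%.

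The number of expressed genes lay between 11219 and 15957 over 9 alternatives, against 11664, the highest with a cut of 1 TPM. Against 36258 genes at 0 counts in both libraries, 38815 and 38889 had 0 counts in the first and second library alone. Wider criteria gave 43132 genes at or under 3 counts in both libraries and 42430 under a mean of 0.1 FPKM. Of the 36258 genes, 27488 shared no exonic base with another gene. Of the counts of expressed members in 24 lists, 2 moved by over 1.5 times with a cut of 1 TPM, 1 with 0.5 FPKM, 8 with 5 FPKM and 1 in the first library alone. The alternative gene length and the count of genes without shared exons were chosen after seeing the data. No paired analysis was possible because no groups were compared. With 2 libraries of unknown origin, SDs are rough, and levels of a few counts are not resolved at this depth.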

Other observations

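ESAM and ROBO4, both known from endothelial cells, were expressed at 57.3 ± 1.0 and 7.89 ± 0.80 FPKM, while KDR had 58 and 57 counts, PECAM1 14 and 11, CDH5 0 and 4, and VWF 0 and 1. The 2 genes lie close together on chromosome 11 (chr11:124752583-124762290 and chr11:124883691-124898500). Of their neighbours, NRGN, a neuronal calmodulin-binding protein, stood at 20.9 ± 1.9 FPKM, MSANTD2 at 7.06 ± 0.22, TBRG1 at 6.05 ± 0.12, ROBO3 at 1.89 ± 0.007 and VSIG2 at 1.73 ± 0.028, and PANX3, HEPACAM and HEPN1 had 0 counts in both libraries. The part of their position in these levels was not tested.

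MALAT1, a long non-coding RNA that is abundant in most cells, had 135 and 157 counts (0.98 ± 0.11 FPKM). Its gene (chr11:65497688-65506516) overlaps that of the antisense transcript TALAM1 (chr11:65499312-65507432), which had 0 counts in both libraries. NEAT1, a nuclear RNA of the same chromosome, had 10102 and 9668. Whether reads of the overlap were left out of both genes was not tested.

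Among protein-coding genes, 46.2% of the 11008 that share no exonic base with another gene were expressed, 61.7% of the 7697 with up to 50% of their bases shared, 27.5% of the 596 with over 50% and up to 90%, 3.5% of the 200 with over 90% and 3 of the 292 with all bases shared. ICAM4 and ZNF593, both fully shared, had 0 counts, and CFAP126 (245 and 216 counts) was the highest of the fully shared genes.

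The length used for scaling moved single genes far. AHNAK, a very large scaffold protein, had 51778 and 51132 counts. With its exonic size of 19466 bases it ranked as number 113 of the nuclear coding genes. With 1024 bases, the median length of its annotated coding transcripts, it ranked as number 3. A transcript of 1024 bases is too short for so large a protein, so that this second rank is no measure of its level. YWHAZ moved from number 56 to number 9.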
